A study of Homo sapiens with 24 samples.

Results

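PRKG1 and its surroundings on chromosome 10 were examined at chr10:52700001-54100000 of build hg19, a stretch of 1.4 Mb in which the gene runs from about 52.75 to 54.06 Mb. The locus was chosen by its readout: in the 1 Mb window from 53 to 54 Mb, more MYOD regions than almost anywhere else were found only after TWIST2 knockdown, together with many H3K27ac regions. Its members are the 550 peaks that overlap the stretch, of 564552 in the 14 peak lists. The gain of H3K27ac and MYOD peaks in the knockdown libraries is therefore how the locus was selected and is given as a description, with no test. Only SMARCA4 peak number, which the choice did not use, was tested between groups.

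The data are chromatin immunoprecipitation sequencing (ChIP-seq) libraries of RD, an established human line derived from a rhabdomyosarcoma without a gene fusion. This is a tumour whose cells resemble immature muscle. For each of the antibodies H3K27ac, MYOD and SMARCA4 there were 2 libraries with the genotype control and 2 with the genotype TWIST2 KD (knockdown), and 2 Ty1 libraries came from cells labelled 3xTy1-TWIST2, which carry TWIST2 with an epitope tag. H3K27ac, MYOD and Ty1 carry the set name RD-1 and SMARCA4 the set name RD-2, and the meaning of these names, the method of knockdown and the promoter of the tagged construct are not given in the sources used here. The 10 input libraries had no list of their own. RNA was not measured, so neither the level of TWIST2 after knockdown, nor that of PRKG1, nor muscle markers of the RD cells could be checked. The labels number the replicates without saying whether they were separate cultures, so the spread between them may be technical. All experiments used 1 cell line, and TWIST2 sites come from tagged protein and not from the control or KD cells.

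PRKG1 encodes cGMP-dependent protein kinase I, the kinase through which nitric oxide and natriuretic peptide signals, relayed by cyclic GMP, relax smooth muscle and restrain platelets. The gene is long, and the enzyme is made in alpha and beta forms that begin at different first exons. H3K27ac marks active promoters and enhancers. MYOD drives skeletal muscle differentiation, and TWIST2 is a factor of the same basic helix-loop-helix family. Both bind E-boxes, short motifs of the form CANNTG. SMARCA4, also called BRG1, supplies the ATPase activity with which SWI/SNF complexes move nucleosomes.

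By the RefSeq gene table of GRCh38, from which only names and neighbours are given here, PRKG1 lies on the + strand and its span also holds the protein-coding gene CSTF2T, the microRNA gene MIR605, the antisense gene PRKG1-AS1, the pseudogene RSU1P3 and 2 lncRNA genes. The next protein-coding genes are A1CF below and DKK1 above. A pair of RefSeq promoter windows of PRKG1, each of 250 bases directly before a listed transcription start, are shown because they are the stretches of this gene where E-boxes could be looked for: "PRKG1 start 1" and "PRKG1 start 2". Neither is the outermost start of the gene: in the same table start 1 lies 83.6 kb inside it, and the window before the outermost start is not shown. The positions belong to GRCh38 and were not converted to the hg19 positions of the peaks.
PRKG1 start 1, chr10:51074237-51074486, + strand, GRCh38.p14: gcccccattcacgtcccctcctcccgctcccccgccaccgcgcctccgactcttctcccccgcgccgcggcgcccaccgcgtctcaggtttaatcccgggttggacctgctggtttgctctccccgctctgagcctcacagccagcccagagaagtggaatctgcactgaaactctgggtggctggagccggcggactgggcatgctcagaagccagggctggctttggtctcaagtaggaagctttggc
PRKG1 start 2, chr10:52046506-52046755, + strand, GRCh38.p14: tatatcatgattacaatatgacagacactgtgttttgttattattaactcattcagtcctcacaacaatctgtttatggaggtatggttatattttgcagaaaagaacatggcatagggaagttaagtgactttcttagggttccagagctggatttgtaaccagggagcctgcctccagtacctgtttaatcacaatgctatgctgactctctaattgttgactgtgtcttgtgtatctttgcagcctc
Capitals would mark a CANNTG match on either strand (the motif is its own reverse complement), and neither window held 1. Of 35116 RefSeq promoter windows of the same length, 61.8% held at least 1. The window of start 1 was rich in G and C, at 66%, and that of start 2 was not, at 38.8%. The first exon starts of PRKG1 outside these 2 windows, and the sequence below the peaks themselves, were not analysed here.

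H3K27ac peaks over PRKG1 were more than doubled in number in the KD libraries. The stretch held 32 and 26 H3K27ac peaks in control libraries 1 and 2, and 68 and 73 in KD libraries 1 and 2. Both KD libraries lay above both control libraries, with means of 70.5 ± 3.54 and 29 ± 4.24 (SD, n = 2 each), and the KD mean was 2.43 times the control mean. Over the whole genome the KD lists were also longer, by 1.32 times, so the locus was set against list length as well. It took 0.0872% and 0.0744% of the control lists and 0.142% and 0.156% of the KD lists. Among the peaks that stand in the upper 0.5 of each list in its deposited order, the locus had 17 and 16 control peaks and 40 and 41 KD peaks. The peaks together covered 103 and 93.5 kb in control and 168 and 163 kb in KD libraries. This is a ratio of 1.69, smaller than that of the peak number. The median width of a peak was 1777.5 and 2186.5 bp in control and 1761 and 1726 bp in KD libraries. Peaks of 5 kb or more numbered 5 and 4 in control and 6 and 6 in KD libraries.

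MYOD showed the same order of groups with a wider spread between the KD libraries. There were 30 and 29 MYOD peaks over the locus in the controls, and 65 and 46 in the KD libraries. The KD libraries again lay above the controls, but KD library 1 had 19 peaks more than KD library 2, and the means were 55.5 ± 13.4 and 29.5 ± 0.707 (SD, n = 2 each). The KD mean was 1.88 times the control mean, where the whole lists differed by 1.14 times. Each MYOD list has 1 peak width, 159 and 179 bp in control and 213 and 225 bp in KD libraries, so the width of a MYOD peak carries no measurement.

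H3K27ac peaks were more numerous in KD libraries both inside and outside the 1 Mb used to choose the locus, and MYOD peaks mainly inside it. From 53 to 54 Mb the H3K27ac peaks numbered 24 and 18 in control and 51 and 51 in KD libraries, and in the rest of the stretch 8 and 8 in control and 17 and 22 in KD libraries. H3K27ac therefore had a similar ratio in both, 2.43 and 2.44. The difference was uneven within each. Outside the 1 Mb it lay mainly at chr10:52800001-53000000. The first 100 kb of this, chr10:52800001-52900000, held 2 and 2 control and 7 and 7 KD peaks. The next 100 kb, chr10:52900001-53000000, held 1 and 2 control and 6 and 7 KD peaks. At chr10:54000001-54100000 the groups overlapped, with 4 and 3 control and 3 and 4 KD peaks. Inside the 1 Mb, chr10:53500001-53600000 had 1 and 1 in both groups, and chr10:53200001-53300000 had 1 and 1 control and 2 and 0 KD peaks. MYOD peaks numbered 20 and 23 in control and 53 and 40 in KD libraries from 53 to 54 Mb, and 10 and 6 in control and 12 and 6 in KD libraries in the rest. The MYOD ratio was 2.16 in the 1 Mb and 1.12 outside it, where the libraries of both groups overlapped.

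**Figure D1:**
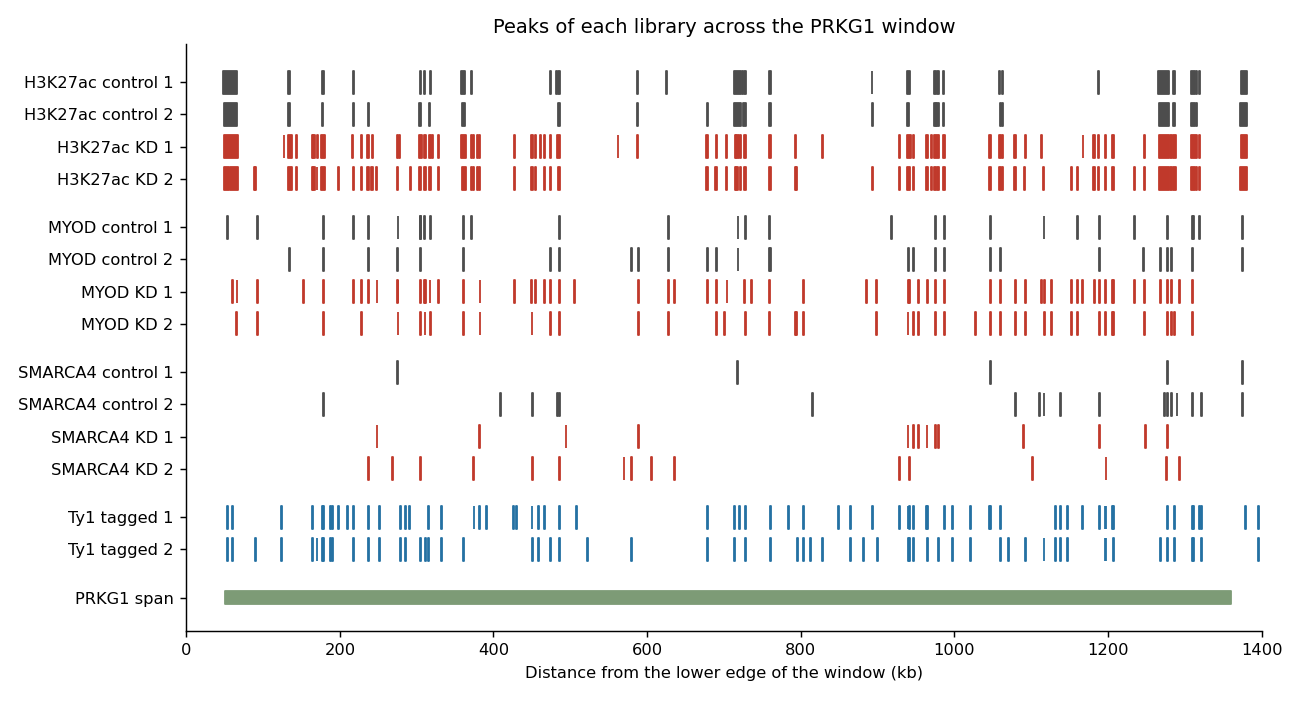
Peaks of all 14 libraries along the PRKG1 stretch, with the distance from its lower edge in kb on the horizontal axis and 1 row per library; grey marks control, red KD and blue 3xTy1-TWIST2 libraries, and the green bar is the span of PRKG1. Peaks narrower than 1.2 kb are drawn at 1.2 kb so that they can be seen; the H3K27ac KD rows hold 68 and 73 peaks against 32 and 26 in the control rows.

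To see which places differed, overlapping peaks (1 bp or more) from all 4 libraries were joined into regions, separately for each antibody. A region was called KD-only if both KD libraries and no control had a peak in it, control-only in the opposite case, and shared if all 4 libraries had 1. The locus held 80 H3K27ac regions. Of these 30 were KD-only (37.5%), against 19.8% of all 55905 H3K27ac regions, and 0 were control-only, against 4.21%. A further 20 regions (25%) were shared, against 49.1% of all. Of the remaining 30 regions, 18 had a peak in 1 KD library only and 3 in 1 control library only, 7 in both KD libraries and 1 control, and 2 in both controls and 1 KD library. MYOD had 85 regions over the locus. The KD-only class held 15 of them (17.6%), against 9.1% of all 88541 MYOD regions, and the control-only class 2 (2.35%), against 5.41%. A further 11 (12.9%) were shared, against 20.3% of all. The other 57 (67.1%, against 65.2% of all) included 26 with a peak in 1 KD library alone and 9 with a peak in 1 control library alone. How often such single-library regions occurred among all MYOD regions was not counted. The KD-only MYOD count was 36 without KD library 2. The control-only MYOD count was 6 without control library 1 and 7 without control library 2. For H3K27ac the control-only count was 3 without control library 2, 1 without KD library 1 and 1 without KD library 2. These shares lay above the background for KD-only and below it for control-only regions in both antibodies, which is what the locus was chosen for.

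The 30 KD-only H3K27ac regions all lay inside the span of PRKG1, which takes 1.31 of the 1.4 Mb. So did 19 of the 20 shared regions and all 30 regions of no class. The KD-only ones lay between 52842813 and 53983109, 23 of them in the 1 Mb used for the choice and 7 outside it. They were 679 to 2902 bp wide, with a median of 1534 bp against 1474 bp for all KD-only H3K27ac regions. Most were middling peaks of their lists. The lists of H3K27ac, MYOD and Ty1 carry no score, so a peak's place in the deposited order was used, as a percentile with 100 at the top of the list, and the files do not say what the order means. By it the KD-only H3K27ac regions of the locus had mean percentiles from 9.73 to 72.3 in the KD lists, with a median of 49.8, and all KD-only H3K27ac regions had a median of 29.9.

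The widest of them was chr10:53904806-53907707, with 2902 bp in KD library 1 and 2446 bp in KD library 2 and no control peak. It held 2 KD-only MYOD regions and 1 TWIST2 region, that is, a region with a peak in both Ty1 libraries. The next, chr10:53745229-53747886, covered 2358 and 2658 bp in the KD libraries and held a MYOD region present in all 4 libraries, so MYOD was called there in the control cells without an H3K27ac peak. It also held a SMARCA4 peak found only in control library 1, chr10:53746419-53746613. The region chr10:53663116-53665639 covered 2405 and 2499 bp and held a TWIST2 region, and a MYOD region that was neither KD-only nor shared. A SMARCA4 peak lay there in KD library 1 only, chr10:53663790-53663930. The region chr10:53148620-53151073 covered 2277 and 2401 bp and held 1 KD-only MYOD region, 1 TWIST2 region and 2 SMARCA4 regions. Of the other 4 among the 8 widest, chr10:52973783-52976147 and chr10:53388872-53391119 each held 2 MYOD regions, chr10:53880424-53882848 held 1 and chr10:52865260-52867519 held none. None of these 4 held a KD-only MYOD or a TWIST2 region. Only chr10:52973783-52976147 held a SMARCA4 peak, chr10:52974675-52974869, found in control library 1.

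The KD-only MYOD regions were placed higher in their lists than the H3K27ac ones were in theirs. Their mean percentiles in the KD lists ran from 38.6 to 98.3 with a median of 75.4, against a median of 41.5 for all KD-only MYOD regions. Those named here are the 8 highest. The highest was chr10:53081827-53082076, at percentiles 97.9 and 98.7 in KD libraries 1 and 2, inside the KD-only H3K27ac region chr10:53081119-53083115. The second was chr10:53791616-53791856, at 97.9 and 97.3, also inside a KD-only H3K27ac region. Both ranked as high as MYOD peaks that all 4 libraries had: the shared MYOD regions of the locus had a median percentile of 94.0 in KD and 91.1 in control lists. Next came chr10:53905461-53905702 at 81.1 and 89.7, and chr10:53149503-53149825 at 73.4 and 90.4, both in KD-only H3K27ac regions named above. The region chr10:52765444-52765715, at 82.7 and 81.0, lay in the broad shared H3K27ac region at the start of the gene. The region chr10:53652177-53652401, at 85.2 and 72.9, lay in no H3K27ac region. The last of the 8 highest, chr10:53906570-53906824 at 75.5 and 76.5 and chr10:52927900-52928142 at 68.5 and 82.3, lay in KD-only H3K27ac regions.

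Gains of both kinds fell on the same place in part of the cases. Both classes come from the contrasts by which the locus was chosen, so these counts are a description and were not tested. KD-only regions were also 37.5% of the H3K27ac regions of the locus, against 19.8% of all, which bears on the shares that follow. Of the 15 KD-only MYOD regions 9 (60%) lay in a KD-only H3K27ac region, where the share among all KD-only MYOD regions was 29.8%, and 1 (6.67%) lay in a shared H3K27ac region, where the share among all was 22.5%. A further 4 lay in no H3K27ac region. Seen from the other side, 8 of the 30 KD-only H3K27ac regions (26.7%) held a KD-only MYOD region, against 21.3% of all, and 21 (70%) held a MYOD region of some class, against 67.3%. A control-only MYOD region was held by 0 of the 30, against 0.542% of all. Without MYOD KD library 2 the KD-only class rests on 1 library and the 8 became 16.

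Both control-only MYOD regions lay inside broad shared H3K27ac regions, as did 64.2% of all control-only MYOD regions inside shared ones of some width. The H3K27ac regions around them were the 2 shared regions in which both control libraries covered more bases than both KD libraries. The first, chr10:53417688-53417904, stood at percentiles 95.3 and 91.0 in control lists 1 and 2. Its H3K27ac region, chr10:53412733-53422497, was a single peak of 9765 and 9187 bp in the controls, and 3 separate peaks adding up to 5981 and 5550 bp in KD libraries 1 and 2. This is a KD to control ratio of 0.608, the lowest among the 20 shared regions of the locus. The region held a SMARCA4 peak in control library 1 at chr10:53417382-53417576. The second, chr10:54074074-54074369, stood at 90.7 and 90.1 in the control lists. It lay above the span of PRKG1, in the H3K27ac region chr10:54072356-54081165 with 8687 and 8694 bp in control and 8534 and 8414 bp in KD libraries, a ratio of 0.975. The same place had the only control-only SMARCA4 region of the locus, chr10:54074263-54074485, and no TWIST2 region.

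The other shared H3K27ac regions mostly covered more bases in KD libraries. In 12 of the 20 both KD libraries covered more bases than both controls, against 45.4% of all 27442 shared H3K27ac regions, in 2 both controls covered more, against 29.8%, and in 6 the groups overlapped. The median KD to control ratio was 1.34 at the locus and 1.05 over all shared regions. The ratio was 2.02 at chr10:53015802-53018724, where the peaks were 1122 and 1598 bp wide in control and 2923 and 2558 bp in KD libraries. It was 1.86 at chr10:53757932-53760595 and 1.74 at chr10:52875842-52880357, which were singled out after their values were seen. The broadest regions did not follow this. The region at the start of the gene, chr10:52748486-52767124, covered 18206 and 16716 bp in control and 17335 and 16625 bp in KD libraries. The second broadest, chr10:53965535-53979906 near the far end of the gene, covered 13745 and 13139 bp in control and 13902 and 13665 bp in KD libraries. In both the groups overlapped, and the ratios were 0.972 and 1.03.

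**Figure D2:**
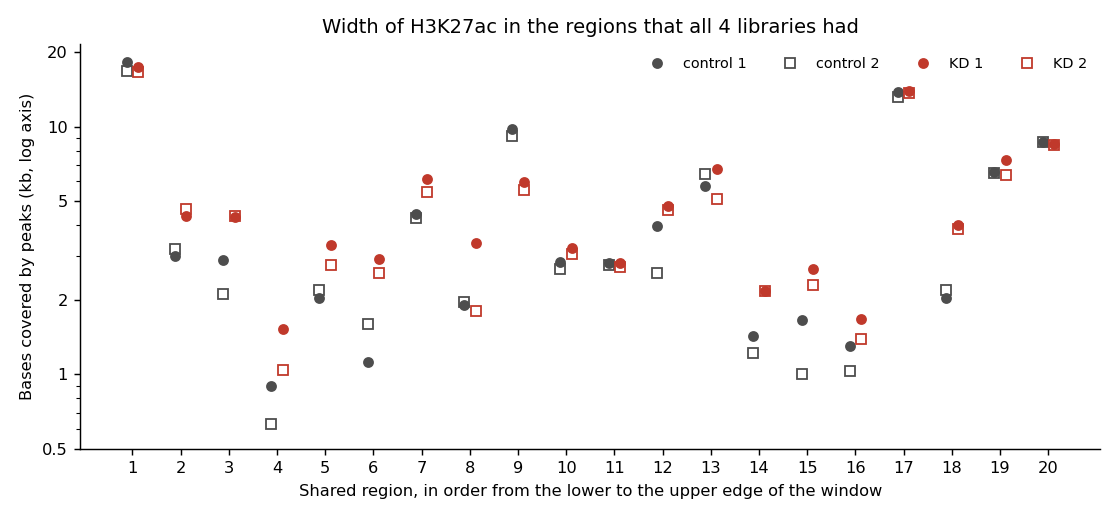
Bases covered by H3K27ac peaks (kb, log axis) in each of the 20 shared regions, in order along the locus, with filled circles for library 1 and open squares for library 2 of control (grey) and KD (red). The KD points lie above the control points in 12 regions and below them in 2, the 9th and the 20th, and the broad 1st and 17th regions change little.

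TWIST2 sites were frequent over PRKG1. The Ty1 libraries had 67 and 61 peaks there, which merged into 87 regions, and 41 of these had a peak in both libraries. By list position the highest was chr10:52916744-52916994, at percentiles 99.7 and 99.3, in a shared H3K27ac region. H3K27ac was found at 15 and 15 of the 41 TWIST2 regions in control libraries 1 and 2 and at 21 and 22 in KD libraries 1 and 2. As shares these are 36.6% and 36.6% in control and 51.2% and 53.7% in KD libraries, where all TWIST2 regions had 36.7% and 35.2% in control and 45.2% and 44.1% in KD libraries. MYOD was found at 9 and 9 of the 41 in control and at 16 and 13 in KD libraries. These are 22.0% and 22.0% in control and 39.0% and 31.7% in KD libraries, where all TWIST2 regions had 29.5% and 29.3% in control and 34.0% and 32.9% in KD libraries. No peak of H3K27ac, MYOD or SMARCA4 in any library was found at 15 of them (36.6%), against 38.3% of all TWIST2 regions.

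Most of the KD-only regions overlapped no TWIST2 region. A TWIST2 region overlapped 6 of the 30 KD-only H3K27ac regions (20%), against 31.5% of all KD-only H3K27ac regions, and 11 of the 20 shared ones (55%), against 52.0% of all shared. Among MYOD regions it was 4 of 15 KD-only (26.7%, against 25% of all) and 4 of 11 shared (36.4%, against 46.6%). The count for H3K27ac became 13 when a peak in either Ty1 library was enough and 11 without Ty1 library 2, and the count for MYOD became 7 with either Ty1 library and 7 without MYOD KD library 2. The centre of a TWIST2 region lay within 100 bp of that of 4 of 15 KD-only, 4 of 11 shared, 0 of 2 control-only and 10 of 57 other MYOD regions. The median distance from a KD-only MYOD region to the nearest TWIST2 centre was 5874 bp. It was longer in the other classes, 9888.5 bp for shared, 8502 bp for other and 12842.8 bp for the 2 control-only regions. The distances overlapped widely, from 36.5 to 49507.5 bp for KD-only and from 0.5 to 50479 bp for shared regions. Distances over all MYOD regions were not computed. The share of unspecific Ty1 peaks is unknown, as no Ty1 library of untagged cells was among the samples.

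**Figure D3:**
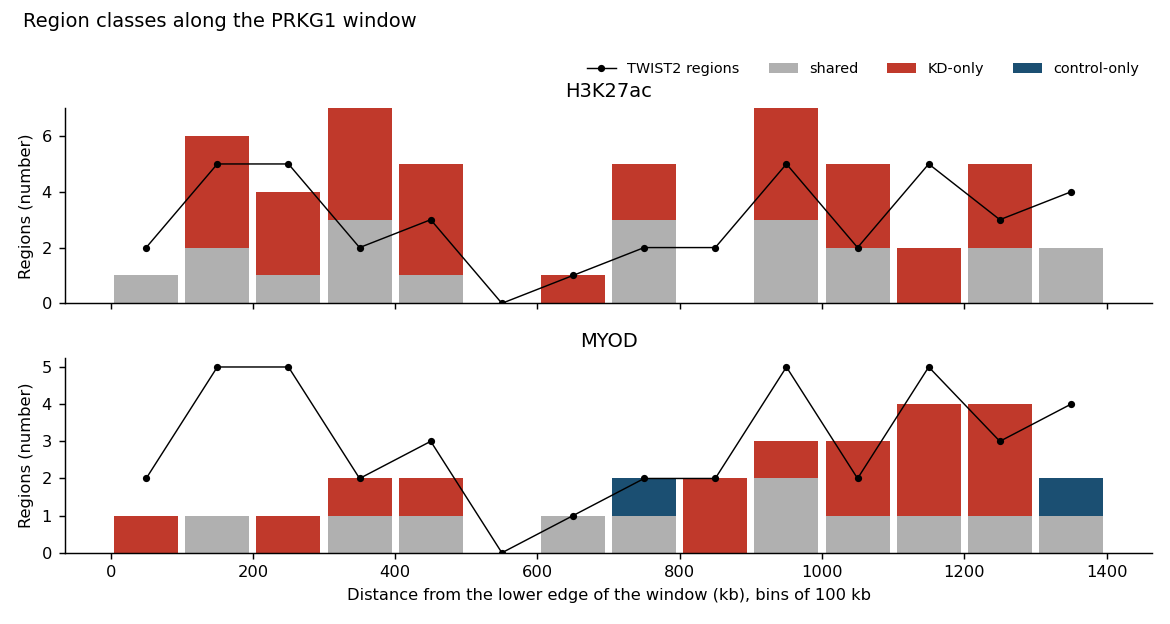
Number of shared (grey), KD-only (red) and control-only (blue) regions of H3K27ac (upper panel) and MYOD (lower panel) in bins of 100 kb, and of TWIST2 regions (black line), against the distance from the lower edge of the locus in kb. KD-only H3K27ac regions reach 4 in 4 of the 14 bins and are at 0 in 4, and KD-only MYOD regions are most frequent, 3 per bin, from 1100 to 1300 kb.

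Along the gene the KD-only regions were unevenly placed. KD-only H3K27ac regions numbered 4, 3, 4 and 4 in the 4 bins of 100 kb that began 100 kb above the lower edge. The bin from 500 to 600 kb held none of them and no TWIST2 region either, and the 4 bins from 900 kb on held 4, 3, 2 and 3. KD-only MYOD regions lay mostly towards the far end, with 2, 1, 2, 3 and 3 in the 5 bins from 800 to 1300 kb.

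For SMARCA4 no difference in peak number between the groups was detectable. Its peaks over the locus numbered 5 and 18 in control libraries 1 and 2 and 14 and 16 in KD libraries 1 and 2. The control libraries lay on both sides of the KD libraries, with means of 11.5 ± 9.19 and 15 ± 1.41 (SD, n = 2 each). The difference of 3.5 peaks was within the spread between libraries (exact two-sided permutation p = 1, n = 2 each, smallest possible p = 0.333). The whole lists differed too, with 11835 and 25013 peaks in control and 12518 and 14676 in KD libraries, and so did the share of tags in peaks given in the file headers, 0.88% and 1.83% in control and 0.65% and 0.7% in KD libraries. When the lists were trimmed to equal length the difference was 7.5 peaks (exact permutation p = 0.333, two-sided), which is the lowest p that 2 libraries against 2 can give. As a share of its list the locus took 0.0422% and 0.072% in control and 0.112% and 0.109% in KD libraries, where both KD libraries lay above both controls. Without control library 1 the difference in peak number was -3, so its direction rests on that library, and without control library 2 it was 10.

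Few SMARCA4 positions were found more than once. Of 48 SMARCA4 regions 44 had a peak in 1 library, 3 in 2 and 1 in 3. KD-only regions numbered 0, against 1.91% of all 48009 SMARCA4 regions, control-only regions 1, against 6.68%, and shared regions 0, against 1.11%. Regions in none of these classes made up 97.9% at the locus and 90.3% of all SMARCA4 regions, so poor overlap between libraries was not particular to PRKG1. The control-only count became 15 without control library 1, 4 without control library 2 and 2 without KD library 1. The KD-only count became 15 without KD library 1 and 12 without KD library 2, when 1 library makes the class. The region in 3 libraries was chr10:53976671-53976866, with a tag signal (tags per 10000000 sequenced) of 15.0 in control library 1, 13.8 in control library 2 and 10.5 in KD library 1. It lay in the second broadest shared H3K27ac region, at the MYOD region chr10:53976671-53976907, which had a peak at percentiles from 99.6 to 99.8 in all 4 MYOD lists, and at a TWIST2 region. KD library 2 had its nearest peak in the same H3K27ac region, at chr10:53975607-53975751. The control-only region chr10:54074263-54074485 had a tag signal of 15.0 and 19.4 in control libraries 1 and 2. The other 2 were chr10:53185309-53185506, with 12.1 in control library 2 and 6.33 in KD library 2, and chr10:53887904-53888062, with 7.36 in control library 2 and 7.20 in KD library 1. Both lay at MYOD regions that all 4 libraries had.

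SMARCA4 peaks of any library, control or KD, were found at 12 of the 30 KD-only H3K27ac regions (40%), against 23.2% of all KD-only H3K27ac regions. The same count was 9 of the 20 shared ones (45%), against 68.4%. The SMARCA4 peaks in KD-only H3K27ac regions numbered 2 and 3 in control libraries 1 and 2 and 4 and 4 in KD libraries 1 and 2. At the KD-only MYOD regions 5 of 15 (33.3%) had a SMARCA4 peak, each in 1 library, against 25% of all KD-only MYOD regions with a SMARCA4 peak. In KD library 1 these were chr10:53081823-53081963, with a tag signal of 5.82, at the highest placed KD-only MYOD region, and chr10:53652140-53652280, with 4.99. In KD library 2 they were chr10:53149686-53149830 with 5.36 and chr10:53896820-53896964 with 3.90. Control library 2 had the fifth, chr10:53778989-53779147 with 5.13.

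MYOD, SMARCA4 and a TWIST2 region all overlapped 11 of the 80 H3K27ac regions of the locus (13.8%), against 24.3% of all H3K27ac regions. A MYOD or SMARCA4 peak of any library counted, anywhere in the H3K27ac region, so they need not lie at 1 site. In chr10:53412733-53422497 the TWIST2 region was chr10:53412819-53413108 and the MYOD region chr10:53417688-53417904. Among the 11 were 6 of the 20 shared regions (30%, against 38.3% of all shared) and 4 of the 30 KD-only regions (13.3%, against 10.5%). The shared ones were chr10:52875842-52880357, chr10:53182996-53186397, chr10:53412733-53422497, chr10:53637791-53642990, chr10:53965535-53979906 and chr10:54008417-54015801. The KD-only ones were chr10:53148620-53151073, chr10:53645592-53647363, chr10:53663116-53665639 and chr10:53896053-53896986. The last, chr10:52935864-52937599, was found in both KD libraries and 1 control.

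The stretches beside the locus had fewer peaks and, for H3K27ac, a smaller difference between the groups. In the stretch of equal length below the locus H3K27ac peaks numbered 8 and 8 in control and 13 and 11 in KD libraries, and in the stretch above it 14 and 13 in control and 14 and 13 in KD libraries. The means were 8 and 12 below and 13.5 and 13.5 above. Each neighbour held 3 KD-only H3K27ac regions, and the upper one also held 3 control-only regions. MYOD peaks numbered 11 and 9 in control and 19 and 14 in KD libraries below, and 8 and 12 in control and 17 and 11 in KD libraries above, where the groups overlapped. KD-only MYOD regions numbered 4 below and 1 above. SMARCA4 peaks in the upper stretch numbered 3 and 5 in control and 10 and 11 in KD libraries, and in the lower stretch 4 and 4 in control and 3 and 5 in KD libraries. At the edges, the last H3K27ac region before the locus was the KD-only region chr10:52634696-52635396, and the first after it, chr10:54159976-54160972, was found in 3 libraries.

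**Figure D4:**
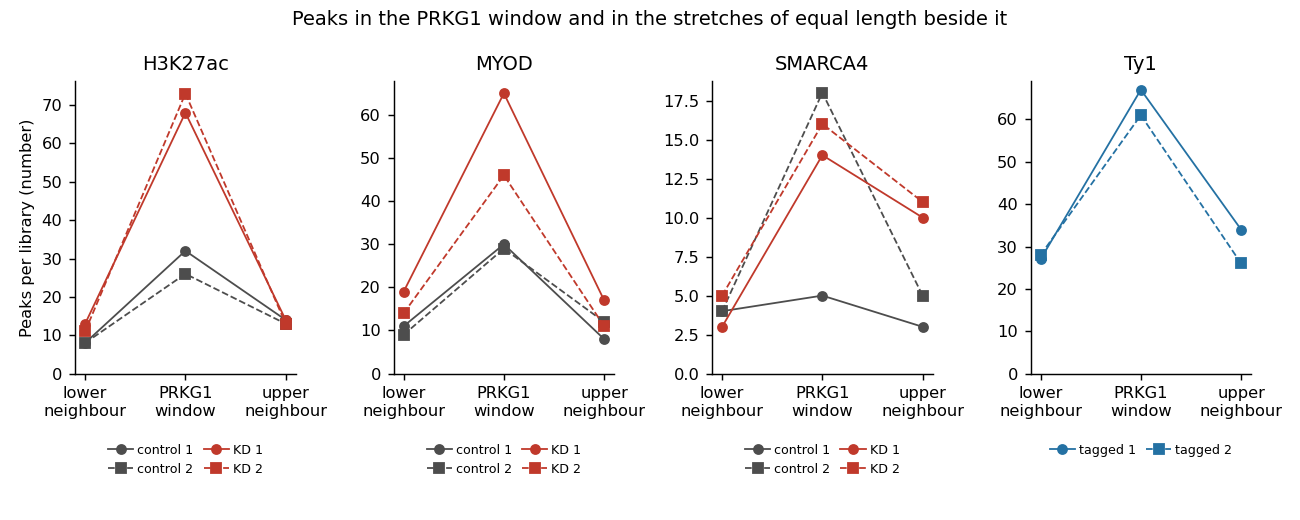
Peaks per library (number) in the PRKG1 stretch and in the stretches of 1.4 Mb directly below and above it, in 1 panel per antibody, with circles for library 1 and squares for library 2; the lines only join the points of a library. For H3K27ac the KD libraries rise to 68 and 73 at PRKG1 and return to 14 and 13 above it, the same numbers as in the controls.

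The threshold by which the locus was picked was narrow. The 1 Mb from 53 to 54 Mb had 13 KD-only and 1 control-only MYOD regions, an excess of 12, which tied with chr12:79000001-80000000 and chr5:82000001-83000000 among 2720 windows, and chr11:19000001-20000000 followed with an excess of 11. By H3K27ac it was the fourth of 2640 windows, with an excess of 23 behind 30, 25 and 24. Among 2044 tiles of 1.4 Mb over the genome, 2 held as many KD-only H3K27ac regions as the PRKG1 stretch and 12 as many KD-only MYOD regions, and the medians were 4.5 and 3. In the control libraries the stretch was less extreme, as 82.2% and 75.5% of the tiles had fewer H3K27ac peaks. For TWIST2 regions 84.4% of the tiles had fewer than 41.

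The 3 tiles most like PRKG1 over the 14 libraries were found by the sum of absolute differences of log2(peak number + 1), a distance of 0 being an identical set of counts. At chr6:113400001-114800000 the distance was 3.12, with 28 and 22 H3K27ac peaks in control and 52 and 54 in KD libraries, 23 KD-only H3K27ac regions and 13 KD-only MYOD regions. At chr2:173600001-175000000 it was 3.13, with 13 KD-only and 1 control-only H3K27ac regions and 4 KD-only and 4 control-only MYOD regions. At chr2:161000001-162400000 it was 3.30, with 17 KD-only and 3 control-only H3K27ac regions and 12 KD-only and 1 control-only MYOD regions. All 3 had fewer KD-only H3K27ac regions than the 30 at PRKG1. As PRKG1 was chosen for its many KD-only regions, this does not set it apart from them.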

How the data were processed

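ChIP-seq peak lists of 14 libraries were used, and positions are in hg19 (GRCh37), as the submitters' processing notes name it. HOMER 4.4, bedtools 2.29.2, Bowtie2 2.3.4.3 and SAMtools 0.1.19 stand in the same notes. The build was checked on chromosome 10: of 682 protein-coding gene starts of GRCh38, 2.35% fell in H3K27ac peaks of control library 1 unshifted and 52.2% when shifted by 1.76 Mb, with 3.67% as the median over shifts. The authors' H3K27ac, MYOD and Ty1 lists, called per library, give positions only, which leaves their depth unknown, and no filter was added to the authors' calls. Per the file headers, HOMER called SMARCA4 peaks in each library (false discovery rate 0.001, tags 4-fold over input or more). The total tags were 46690705 and 44810601 in control and 36095336 and 41066933 in KD libraries, per the file headers. The deposited SMARCA4 columns give the tag signal per 10000000 tags, the HOMER score, the fold ratio over input and the p-value of each peak. They are the authors' values for single peaks, used to describe and rank peaks within a list, and the p-values were not used here. A peak list shows no signal below the level a peak had to reach, and that level depends on depth and enrichment.

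Groups came from the titles of the samples. Peaks were merged and classed with Python 3.11.15, numpy 2.4.6 and pandas 2.3.3, the permutation test used scipy 1.17.1 and plots matplotlib 3.10.9. The class and overlap steps were tested on simulated data. Positions are printed counted from 1. The regions named were the 8 KD-only H3K27ac regions with the widest KD peaks, the 8 KD-only MYOD regions highest in the KD lists, all control-only regions, the 4 widest shared H3K27ac regions, regions with all 4 proteins and regions with SMARCA4. Of the last, those in more than 1 library and those at KD-only MYOD regions are given. Those in other named regions are given in part, and the rest by counts. The locus, classes and rules were chosen with earlier results of these data known. Alternatives were a merge distance of 500 bp, an overlap of 0.5 of the shorter region, MYOD peaks of 200 bp, equal numbers of peaks per library, the upper 0.5 of each list, the gene span only, TWIST2 regions from either Ty1 library, each library left out, and a replicate block. A planned list of cyclic GMP pathway genes needed a gene annotation of hg19 and was not analysed here.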

Additional observations from a re-analysis of the deposited data

How the results depend on the processing

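Of 102 combinations of a result and an alternative, 82 kept the count within 1.5 times or the direction, 19 moved further and 1 reversed. Some of the 82 could not have changed, such as the class counts under the overlap of 0.5 and the SMARCA4 difference under the replicate block. Apart from left-out libraries, KD-only H3K27ac regions numbered 22 to 30 and KD-only MYOD regions 15 to 18. With equal numbers of peaks per library there was 1 control-only H3K27ac region. Within the gene span only there was 1 control-only MYOD region and there were 0 control-only SMARCA4 regions. With TWIST2 regions from either Ty1 library, 13 KD-only H3K27ac regions and 7 of MYOD overlapped one. The overlap of 0.5 cannot change the class counts, since a peak lies inside its merged region.

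Leaving out 1 library gave 32 to 40 KD-only and 0 to 3 control-only H3K27ac regions, 20 to 36 and 3 to 7 for MYOD, and 0 to 15 and 1 to 15 for SMARCA4, since 1 library then makes a class. KD-only H3K27ac regions with a KD-only MYOD region numbered 8 to 16, KD-only H3K27ac regions at TWIST2 numbered 5 to 11, and KD-only MYOD regions at TWIST2 numbered 4 to 7. The SMARCA4 difference ran from -3, reversed without control library 1, to 10. A lone library allowed no test there. With equal numbers of peaks it was 7.5 (exact permutation p = 0.333, the smallest possible). With the replicate number as a block, the replicate block fit gave the same difference of 3.5 (exact paired permutation p = 1). The labels do not say what the numbers share, and 2 pairs are too few to check the pairing.

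The H3K27ac, MYOD and Ty1 lists hold no tag counts. A region without a peak is a region without a call, and depth and enrichment cannot be told apart from the groups there. For SMARCA4 the number of libraries limits the test: 2 against 2 cannot reach 0.05.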
